A study of Mus musculus with 12 samples.

Results

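Condensin is the ring-shaped complex that folds chromatin into compact loops when cells enter mitosis. Its SMC core, Smc2 and Smc4, is shared by condensin I, which adds Ncapd2, Ncapg and Ncaph, and by condensin II, which adds Ncapd3, Ncapg2 and Ncaph2. Condensin II is nuclear through the cell cycle, whereas condensin I meets the chromosomes after the nuclear envelope has broken down. Top2a encodes topoisomerase IIα, which untangles DNA strands and is a main protein of the mitotic chromosome axis. Mki67 encodes Ki-67, the proliferation marker that coats mitotic chromosomes and keeps them apart. Many genes of this kind are transcribed mostly in the late cell cycle, through promoter elements named CHR (cell cycle genes homology region) and CCAAT box. The 10 genes were chosen by name, out of 21755 protein-coding genes on chromosomes 1 to 19 and X. For each of them, every ATAC-seq peak was taken whose summit lay inside the gene or within 5 kb of either end, in GENCODE vM21 on mm10. ATAC-seq uses a transposase to cut and tag open DNA, so a peak marks accessible chromatin at the locus and not the level or the binding of the protein that the gene encodes.

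The series asked how loss of H3K9 trimethylation affects mitotic chromosomes of mouse embryonic stem cells (ESCs). WT (line WT26) was set against Suv39h dn (line DN57), in which both H3K9 methyltransferases, Suv39h1 and Suv39h2, are missing, so each genotype stands on 1 line. Cells of both lines were kept in serum and LIF medium on gelatin and were assayed as asynchronous ESCs, as mitotic ESCs and as purified mitotic chromosomes, with 2 libraries in each of the 6 groups. Mitotic cells, and the cells that gave the chromosomes, had been held in demecolcine (0.1 μg/ml, 6 h), a drug that depolymerizes microtubules, and shaken off; chromosomes were then freed into a polyamine buffer, labelled with a Hoechst dye plus chromomycin A3, and sorted by flow cytometry. Nothing states that libraries 1 and 2 of a group came from separate cultures, so the spread between them may be technical.

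The 12 peak lists held between 1746 and 80602 peaks, and the lowest local background in a list, a measure of depth, ranged from 0.149 to 0.328 fragments. Suv39h dn mitotic library 1 stood apart with 1746 peaks, against 6495 to 14328 in the other mitotic libraries. Most of the mitotic counts, summit distances and tests are given with and without it. Of 8 ESC markers, 4 to 7 had a promoter peak in asynchronous libraries, while of 8 fibroblast markers 0 or 1 had one. In the mitotic libraries the counts were 0 to 3 ESC markers and 0 fibroblast markers, and on chromosomes 3 to 7 and 1 or 2 (Col1a2 in 4 of 4). The markers' part in the results was not tested. The Suv39h1 promoter was called in 2 of 6 WT and 0 of 6 Suv39h dn libraries, and that of Suv39h2 in 4 and 2 of 6, which does not check the deletions, since a promoter can stay open.

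The 10 genes held 171 peaks, 68 of them from asynchronous ESCs, 30 from mitotic ESCs and 73 from chromosomes. Merged over the 12 lists, these made 64 sites, 35 of them in promoters, here the 1 kb on either side of any annotated transcript start of the gene, and 29 elsewhere. Of the 29, 17 were called in 1 library alone, 13 lay within 1 kb of the start of another gene, and 0 were seen in mitotic libraries alone. The promoters therefore held most of what was shared between libraries, and their DNA is shown here to place the motifs beside the peaks described next. The 6 stretches below run 5′ to 3′ up to the base before the gene start and are cut where a neighbouring protein-coding gene begins. They come from RefSeq promoters of GRCm38.p6, the assembly named mm10, and capitals mark CHR letters (TTTGAA or TTCGAA) and CCAAT letters on either strand.
Top2a, chr11:99024190-99024439, minus strand: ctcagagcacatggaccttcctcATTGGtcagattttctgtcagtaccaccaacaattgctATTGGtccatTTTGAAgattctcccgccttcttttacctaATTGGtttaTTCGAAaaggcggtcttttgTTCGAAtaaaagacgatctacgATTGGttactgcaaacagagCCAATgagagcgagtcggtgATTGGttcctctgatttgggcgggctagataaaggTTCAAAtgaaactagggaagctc
Mki67, chr7:135716362-135716629, minus strand: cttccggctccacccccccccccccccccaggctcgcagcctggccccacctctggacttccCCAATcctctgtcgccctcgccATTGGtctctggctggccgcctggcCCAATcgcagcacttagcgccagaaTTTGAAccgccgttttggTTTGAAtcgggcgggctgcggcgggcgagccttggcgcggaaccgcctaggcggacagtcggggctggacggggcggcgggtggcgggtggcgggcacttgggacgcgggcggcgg
Ncapg, chr5:45669675-45669918, plus strand: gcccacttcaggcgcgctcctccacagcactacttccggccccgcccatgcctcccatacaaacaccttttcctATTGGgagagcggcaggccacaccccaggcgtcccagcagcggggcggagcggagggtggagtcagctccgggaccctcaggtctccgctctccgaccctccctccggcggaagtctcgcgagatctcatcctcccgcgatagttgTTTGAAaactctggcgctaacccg
Ncapd2, chr6:125191702-125191800, minus strand: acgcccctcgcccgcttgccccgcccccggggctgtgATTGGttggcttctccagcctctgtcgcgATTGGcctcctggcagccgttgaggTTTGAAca
Smc2, chr4:52438971-52439242, plus strand: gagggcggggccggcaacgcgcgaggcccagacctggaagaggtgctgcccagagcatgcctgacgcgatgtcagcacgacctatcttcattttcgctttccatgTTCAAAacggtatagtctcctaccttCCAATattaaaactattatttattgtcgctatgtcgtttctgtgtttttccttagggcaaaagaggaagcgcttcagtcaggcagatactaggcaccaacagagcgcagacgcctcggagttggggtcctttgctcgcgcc
Ncaph, chr2:127133955-127134204, minus strand: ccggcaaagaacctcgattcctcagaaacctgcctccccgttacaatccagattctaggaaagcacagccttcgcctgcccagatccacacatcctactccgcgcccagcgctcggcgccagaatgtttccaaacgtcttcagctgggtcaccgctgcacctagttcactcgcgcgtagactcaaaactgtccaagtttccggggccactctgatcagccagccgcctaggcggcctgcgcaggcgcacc

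Top2a held the densest set, with 6 CCAAT and 4 CHR matches in its window. Mki67 had 3 CCAAT and 2 CHR matches, and Ncapd2 had 3 and 1, with 1 of the CCAAT matches lying past the gene start and not printed. Ncapg had 1 of each, the CHR match close to the start. Smc2 had 2 CHR matches and 1 CCAAT, of which 1 CHR match lies past the start. The Ncaph stretch is shown because it has neither. RefSeq promoters, 300 bases long with 250 of them before the start, were matched for 9 of the 10 genes, all but Smc4, and for 16433 protein-coding genes in all. In these windows CHR letters occurred in 7 of the 9 (all but Ncaph and Ncapd3) against 17.2% of all promoters, and CCAAT in 5 of 9 against 38.9%. Both occurred together in Mki67, Ncapd2, Ncapg, Smc2 and Top2a, 5 of 9, against 7.18% of all. E2F letters, which were TTTGGCG or else TTTCGCG, or with other middle bases TTTCCCG or else TTTGCCG, on either strand, were found in Ncapd2, Ncapg, Ncapg2 and Ncaph, 4 of 9 against 8.39%, and the GC box GGGCGG in 8 of 9, all but Ncaph, against 48.5%. All 9 windows were rich in CpG, with an observed to expected ratio of 0.772 to 1.02 (median 0.935) against a median of 0.604 over all promoters. These are matches of letters and were not tested as binding sites. CHR and CCAAT were picked because genes of this kind are known for them.

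In each of the 12 libraries, the share of the 10 genes with a promoter peak was above the share of all genes. A promoter peak was called at 8 and 10 of the 10 genes in the WT asynchronous libraries and at 6 and 10 in the Suv39h dn libraries, a mean of 8.5 ± 1.91 (SD, n = 4). Mitotic WT libraries had 6 and 7 and mitotic Suv39h dn libraries 2 and 9 (6.0 ± 2.94, n = 4), and the mean was 7.33 without Suv39h dn library 1. Chromosome libraries had 8 and 8 for WT with 7 and 6 for Suv39h dn (7.25 ± 0.957, n = 4). Of all protein-coding genes, 42.9% had a promoter peak in an asynchronous library on average, 18.6% in a mitotic library (23.5% without Suv39h dn library 1) and 43.6% in a chromosome library. The asynchronous libraries with 10 of 10 genes were the longer list of each genotype, and the mitotic library with 2 was the shortest list. The ranges of the 3 preparations overlapped, and the part of list length was not tested. No p-value is given for a count over a named list of genes.

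**Figure D1:**
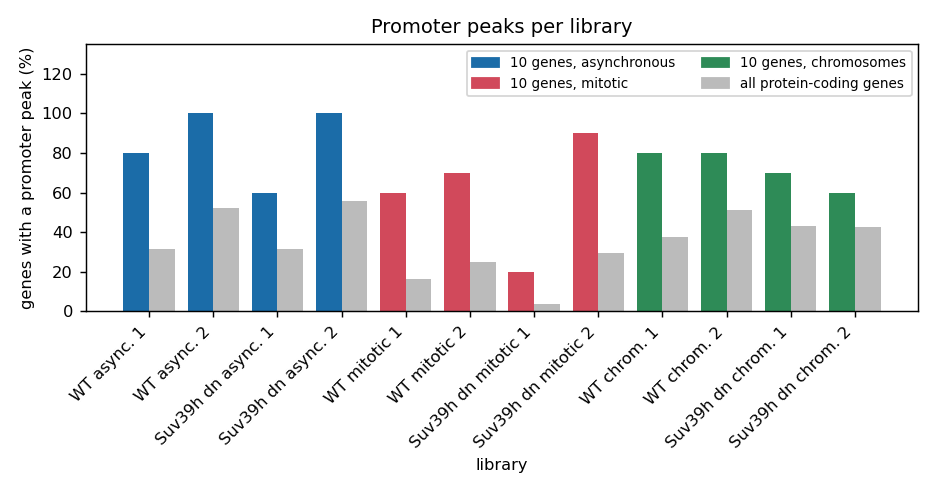
Percentage of the 10 genes (coloured bars) and of all 21755 protein-coding genes (grey bars) with a promoter peak in each of the 12 libraries; the y axis is percent and each bar is 1 library. The coloured bar is the taller in each library, from 20% against 3.63% in Suv39h dn mitotic library 1 to 100% against 55.9% in Suv39h dn asynchronous library 2.

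A promoter was called in 4 of 4 libraries for 5 of the genes in asynchronous ESCs (Ncapd2, Ncapg, Ncapd3, Ncapg2 and Ncaph2; 22.5% of all genes), for 1 in mitotic ESCs (Ncapd2; 2.11%) and for 5 on chromosomes (Ncapd2, Ncapg, Ncapd3, Ncapg2 and Mki67; 21.3%). By complex, condensin II promoters were called in 12 of 12 gene and library combinations for asynchronous ESCs, 7 of 12 for mitotic ESCs and 9 of 12 for chromosomes. Condensin I promoters were called in 11, 7 and 11 of 12. The SMC core was called in 6, 5 and 5 of 8, and Top2a with Mki67 in 5, 5 and 4 of 8. Without Suv39h dn mitotic library 1 the mitotic counts were 7 of 9 for condensin II, 6 of 9 for condensin I, 5 of 6 for the SMC core and 4 of 6 for Top2a with Mki67. The mean share of all genes was 42.9% in asynchronous, 18.6% in mitotic (23.5% without that library) and 43.6% in chromosome libraries. Combinations share genes and libraries and are not independent, and differences between the complexes were not tested.

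The number of fragments that pile up at a summit was recovered from the deposited fold and p-value and gives each call its depth. The highest promoter peaks of the 10 genes stood on 4 to 33 fragments. A promoter without a call is only listed as having no peak, and how many fragments it had under the threshold of the peak caller cannot be read from the lists.

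**Figure D2:**
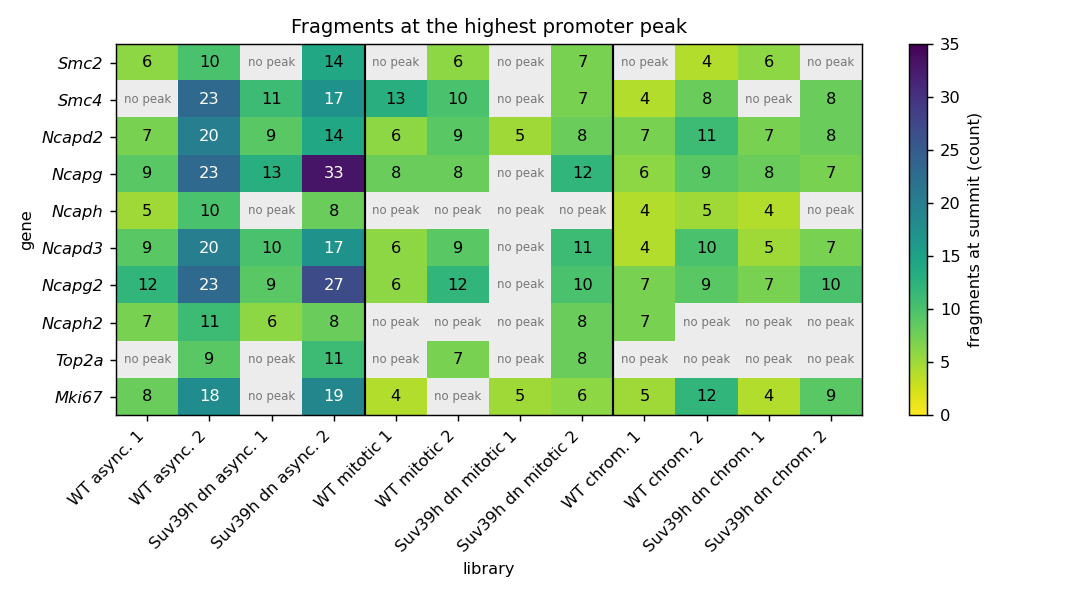
Fragments at the summit of the highest promoter peak of each gene (rows) in each library (columns, in order asynchronous, mitotic, chromosomes); the colour scale and the printed numbers are counts, and grey cells had no called peak. Ncapd2 is filled in all 12 columns, Ncaph has no peak in 4 mitotic libraries, and Top2a has none on chromosomes.

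Of the SMC core, Smc2 (ATPase subunit; chr4:52439243-52488260, plus strand) had promoter peaks of 6 and 10 fragments in the WT asynchronous libraries and of 14 in Suv39h dn library 2, with none in Suv39h dn library 1. It was called in 1 mitotic library of each genotype (6 fragments in WT 2 and 7 in Suv39h dn 2) and in 1 chromosome library of each (4 in WT 2 and 6 in Suv39h dn 1). The highest peaks fell at 2 places, 276 to 316 bases before the start in 5 libraries and between 4 bases before it and 16 after it in 2 libraries. Its partner Smc4 (chr3:69004738-69034623, plus strand) had 23 fragments in WT asynchronous library 2, no call in WT library 1, and 11 and 17 for Suv39h dn. Among mitotic ESCs there were 13 and 10 for WT with 7 for Suv39h dn 2, and chromosomes 4 and 8 for WT with 8 for Suv39h dn 2. In asynchronous ESCs the only WT value of Smc4 lay above both Suv39h dn values, while the Smc2 value of Suv39h dn lay above both WT values. In both cases library 1 of the genotype with the higher value had no call, so the genotypes did not separate. Smc4 shares its promoter with Ift80, which starts 168 bp away on the other strand, and a peak there cannot be assigned to either gene.

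Among condensin I subunits, Ncapd2 (HEAT-repeat subunit; chr6:125168007-125191701, minus strand) was called in all 12 libraries, also in the short Suv39h dn mitotic list. In asynchronous ESCs its highest promoter peak had 7 and 20 fragments for WT against 9 and 14 for Suv39h dn. The same pairs were 6 and 9 against 5 and 8 for mitotic ESCs, then 7 and 11 against 7 and 8 for chromosomes. Genotypes overlapped in each preparation. Mrpl51, a mitochondrial ribosome gene, starts 100 bp from Ncapd2 on the other strand, so the 99 bases printed above are the whole space between both genes. Ncapg (the other HEAT-repeat subunit; chr5:45669919-45700546, plus strand) was called in 11 libraries, all but Suv39h dn mitotic library 1. In asynchronous ESCs WT gave 9 and 23 fragments, Suv39h dn 13 and 33, and 33 was the highest value of any of the 10 genes in any library. Mitotic WT libraries gave 8 and 8 with 12 for Suv39h dn 2, and chromosomes 6 and 9 for WT with 8 and 7 for Suv39h dn. Ncaph (kleisin, the subunit that closes the ring; chr2:127103809-127133954, minus strand) was called in the fewest libraries of this complex, 6 of 12. Asynchronous ESCs gave 5 and 10 fragments for WT with 8 for Suv39h dn library 2, chromosomes 4 and 5 for WT with 4 for Suv39h dn library 1, and the mitotic lists held no promoter peak of it.

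Among condensin II subunits, Ncapd3 (HEAT-repeat subunit; chr9:27030175-27095315, plus strand) had 9 and 20 fragments for WT against 10 and 17 for Suv39h dn among asynchronous ESCs. Mitotic libraries gave 6 and 9 for WT with 11 for Suv39h dn 2, and chromosomes 4 and 10 for WT with 5 and 7 for Suv39h dn. Its highest peak lay 494 to 528 bases inside the gene in 6 of 7 libraries of cells, at chr9:27030584-27030767 in asynchronous ESCs, where another annotated transcript of Ncapd3 begins. In WT mitotic library 1 it lay 2 bases after the gene start. That stretch of 184 bases has 2 CCAAT matches and 1 E2F match, while the 300 bases around the gene start have neither CHR nor CCAAT letters. Ncapg2 (HEAT-repeat subunit; chr12:116405402-116463731, plus strand) gave 12 and 23 fragments for WT against 9 and 27 for Suv39h dn among asynchronous ESCs, 6 and 12 for WT with 10 for Suv39h dn 2 among mitotic ESCs, then 7 and 9 against 7 and 10 for chromosomes. Ncaph2 (kleisin; chr15:89355719-89372826, plus strand) was called in each asynchronous library (7 and 11 fragments for WT, 6 and 8 for Suv39h dn) but in 1 mitotic library (8, Suv39h dn 2) and 1 chromosome library (7, WT 1). The neighbours Vps26b, 110 bp from Ncapd3, and Lmf2, 60 bp from Ncaph2, start on the other strand. So do genes not annotated as protein-coding: Smc2os 278 bp from Smc2, 1600023N17Rik 211 bp from Ncapg and D430020J02Rik 192 bp from Ncapg2. All promoter peaks of Smc2, Ncapg, Ncapg2 and Ncapd3 were shared with these neighbours and cannot be assigned to either gene. The same goes for 8 of 9 promoter peaks of Ncaph2, and for 22 of 27 of Ncapd2, which were shared with Mrpl51. For Ncapd3, Ncapg2 and Ncaph2 the values of both genotypes overlapped in asynchronous ESCs.

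Top2a (chr11:98992943-99024189, minus strand) was called in library 2 of both genotypes in asynchronous ESCs (9 and 11 fragments) and among mitotic ESCs (7 and 8), but in 0 of 4 chromosome libraries. It was the 1 gene of the 10 with no promoter peak on chromosomes. The share of all genes with none was not computed, and a chromosome library had a promoter peak at 43.6% of all genes on average. Library 2 was the longer list in each group of cells. No other gene starts within 1 kb of Top2a. Mki67 (chr7:135689784-135716361, minus strand) had 8 and 18 fragments for WT with 19 for Suv39h dn library 2 among asynchronous ESCs. Mitotic ESCs gave 4 for WT 1 with 5 and 6 for Suv39h dn, and chromosomes 5 and 12 for WT with 4 and 9 for Suv39h dn. It was called on 4 of 4 chromosome libraries and was, with Ncapd2, the other gene called in the short Suv39h dn mitotic list.

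No promoter of the 10 genes was called in every library of 1 preparation and in none of another. Over all genes, 2.09% were called in 4 of 4 asynchronous and 0 of 4 mitotic libraries, 2.35% in 4 of 4 asynchronous and 0 of 4 chromosome libraries, and 0% in 4 of 4 mitotic and 0 of 4 asynchronous libraries. The other directions held 0.124% (mitotic and not chromosomes), 2.2% (chromosomes and not asynchronous) and 7.84% (chromosomes and not mitotic). Ncaph, 3 of 4 in asynchronous ESCs and on chromosomes against 0 of 4 in mitotic ESCs, and Ncaph2, 4 of 4 in asynchronous ESCs against 1 of 4 in both other preparations, were 1 call short of the rule. Top2a, 2 of 4 in cells of either kind against 0 of 4 on chromosomes, was 2 calls short. No share of all genes this close to the rule was computed.

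The place of the summit within a promoter varied more on chromosomes than among asynchronous libraries, for the 10 genes as for all genes. This was looked at after the values had been seen, and no test was run. The highest promoter peak of a gene lay within 100 bp of the same place in 81.4% of 43 pairs between asynchronous libraries (78.6% over all genes), in 59.5% of 84 pairs between asynchronous and mitotic libraries (75.9%), and in 25.0% of 104 pairs between asynchronous libraries and chromosomes (22.4%). Within chromosomes it was 21.6% of 37 pairs (37.8% over all genes), so for the 10 genes chromosome libraries agreed no better with each other than with asynchronous ones. Within mitotic libraries it was 52.2% of 23 pairs (74.6%), and between mitotic libraries and chromosomes 20.5% of 78 pairs (25.5%). Without Suv39h dn mitotic library 1 the values were 61.1% of 18 pairs within mitotic libraries (74.7%), 57.1% of 77 pairs with asynchronous libraries (76.0%) and 22.9% of 70 pairs with chromosomes (25.3%). Pairs share libraries and genes and are not independent. On chromosomes 15 of 29 highest peaks lay more than 250 bp from the nearest annotated start, against 6 of 34 in asynchronous and 5 of 24 in mitotic ESCs, and over all genes the shares were 44.8%, 21.3% and 17.6%, so these counts were near those of all genes.

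Smc4 and Mki67 had their highest peak on different sides of the start. Smc4 summits in cells lay 168 to 204 bases before the start in all 6 libraries with a call. On chromosomes the highest peaks lay 636, 934 and 682 bases after the start, inside the first intron. The choice was close in both WT libraries. In library 1 a peak at 1151 had the same fold as that at 636, and in library 2 a peak at 631 also had 8 fragments. Mki67 summits lay 160 to 180 bases before the start in asynchronous ESCs and 123 to 345 bases before it in mitotic ESCs. On chromosomes they lay 127 to 459 bases after it. The upstream place was also called in WT chromosome library 2 for both genes, for Smc4 at -247 with 7 fragments beside 8 at the highest peak, and for Mki67 at -175 with 8 beside 12. Ncapg2 moved from between 87 bases before and 29 after the start in cells to 50 to 456 bases after it on chromosomes. Ncapg had its highest peak upstream in all 11 libraries, between 240 bases before the start and 16 before it, a span wider than 100 bp. On chromosomes its summits lay at -16 and -228 for WT and at -131 and -21 for Suv39h dn.

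**Figure D3:**
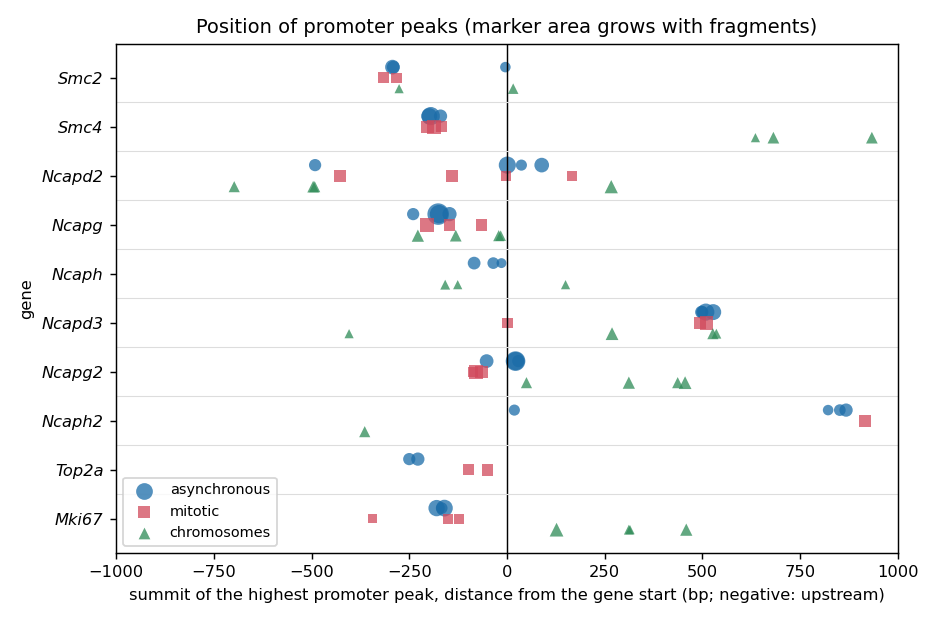
Position of the summit of the highest promoter peak of each gene, in bases from the gene start (x axis; negative values are upstream), 1 marker per library with a call; circles are asynchronous, squares mitotic and triangles chromosomes, and marker area grows with the number of fragments. Smc4 and Mki67 circles and squares lie upstream of 0 and all their triangles downstream, while Ncapg markers overlap.

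The distance of the summits from CHR and CCAAT letters was counted too. Over the 7 genes with a match, the highest promoter peak lay within 100 bp of one in 30 of 42 calls in asynchronous and mitotic libraries and in 6 of 19 on chromosomes. For Top2a the numbers were 4 of 4 in cells, for Mki67 5 of 6 in cells and 0 of 4 on chromosomes, and for Ncapg 7 of 7 and 4 of 4. Ncapd2 had 6 of 8 and 0 of 4, and Ncapg2 and Ncaph2, whose stretches are not printed, had 6 of 7 and 1 of 4, and 1 of 5 and 0 of 1. For Smc2 they were 1 of 5 and 1 of 2, and its upstream peak lay at or beyond the far edge of the printed stretch. Letters were searched only in the RefSeq promoter windows described above, so a summit more than 100 bp outside its window could not count. On chromosomes such summits occurred for Mki67, Ncapg2, Ncapd2 and Ncaph2, and in cells for Ncapd2 and Ncaph2. They made up a larger share of the calls on chromosomes than in cells. The lower count on chromosomes thus largely restates where the summits lay, and no preference for the letters can be read from it. The distances were counted after the values had been seen, and no such share was computed over all promoters.

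How high a promoter peak stood could be tested only for genes called in each library of a comparison, so promoters that lost their call in a preparation are left out by construction. The test was limma on log2 of the fold enrichment, centred on each library's median over the genes tested. It took the highest promoter peak of a gene wherever it lay, so the peaks compared can be different sites. Between asynchronous ESCs and chromosomes 4 of the 10 genes could be tested among 1958, and 481 genes passed an adjusted p of 0.05 (24.6%), 249 higher and 232 lower on chromosomes. Ncapd3 was the 1 of 4 that passed. Its fold was 7.62 and 14.4 for WT with 7.94 and 11.5 for Suv39h dn among asynchronous ESCs. Chromosomes gave 3.62 and 6.14 for WT with 4.17 and 4.94 for Suv39h dn, so these uncentred folds did not overlap. The same held for Ncapg (7.41 to 16.7 against 5.57 to 7.30) and Ncapg2 (7.09 to 13.1 against 4.89 to 6.01), but not for Ncapd2. No share of all genes without overlap was computed. On the centred log2 scale the highest peak of Ncapd3 was 0.51 lower on chromosomes (SE 0.185, limma adjusted p = 0.0354). These peaks were not all at 1 site. They lay 498 to 528 bases after the start in asynchronous ESCs and at 536 and 527 on Suv39h dn chromosomes. On WT chromosomes they lay at -404 and 269. With 1 of 4 against 24.6% of the genes tested, the count is near the background. Leaving out 1 library ended the call in 4 of 8 cases, WT asynchronous 2 (adjusted p = 0.113), WT chromosomes 1 (0.183) and Suv39h dn chromosomes 1 (0.0865) or 2 (0.0652). It also ended when a call in 1 library was enough to be tested (-1.35, limma adjusted p = 0.401). Ncapg (-0.21, adjusted p = 0.416), Ncapg2 (-0.30, 0.218) and Ncapd2 (0.18, 0.506) did not pass. Centring removed a shift, since the median log2 fold of all genes tested was lower on chromosomes (-0.58). Without it the split was 18 higher and 820 lower, Ncapd3 (-1.11), Ncapg (-0.81) and Ncapg2 (-0.89) passed, and Ncapd2 changed sign (-0.42).

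Between asynchronous and mitotic ESCs, 435 genes could be tested and 11 passed (2.53%), 7 higher and 4 lower in mitotic ESCs, or 0 and 39 without centring. Ncapd2 was the 1 of the 10 with a call in all 8 libraries. Its centred log2 fold differed by -0.03 (SE 0.165, limma adjusted p = 0.951). Without Suv39h dn mitotic library 1, 2028 genes could be tested and 56 passed, and none of the 4 testable condensin genes was among them, with differences of -0.16 for Ncapg, -0.11 for Ncapg2, -0.08 for Ncapd3 and -0.04 for Ncapd2 (adjusted p from 0.71 to 0.934). Between mitotic ESCs and chromosomes 250 genes were tested and 32 passed (12.8%), 21 higher and 11 lower on chromosomes, or 8 and 7 without centring. Ncapd2 was 0.43 higher on chromosomes (SE 0.181, adjusted p = 0.104), and 0.37 higher without Suv39h dn mitotic library 1 (adjusted p = 0.296).

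**Figure D4:**
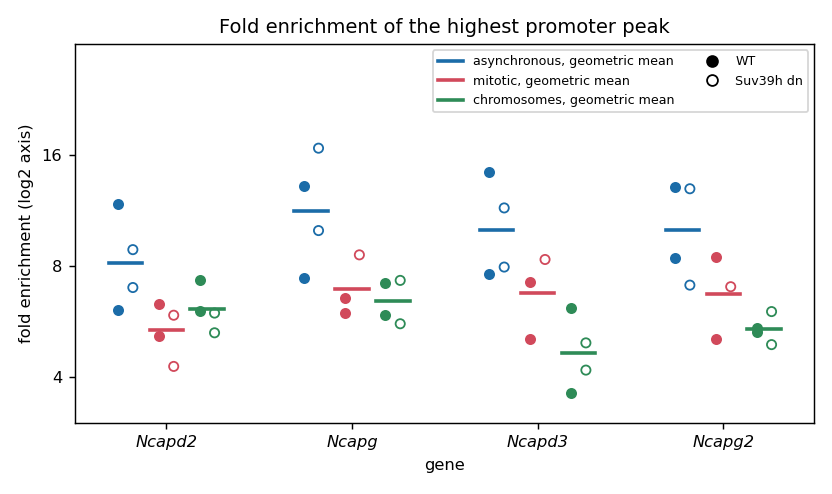
Fold enrichment of the highest promoter peak as deposited (y axis, log2 scale, not centred) for the 4 genes with a call in each asynchronous and chromosome library. Each point is 1 library (filled WT, open Suv39h dn) and horizontal lines are geometric means; mitotic points are 3 libraries except for Ncapd2 with 4. Ncapd3 spans 7.62 to 14.4 in asynchronous ESCs and 3.62 to 6.14 on chromosomes.

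Between the genotypes, the number of the 10 genes with a promoter peak (Suv39h dn minus WT) differed by -1.0 in asynchronous ESCs, by -1.0 in mitotic ESCs and by -1.5 on chromosomes. The mean of the 3 differences, -1.17, was smaller than the pooled SD of 2.43 genes between libraries of a group. Without Suv39h dn mitotic library 1 the mitotic difference turned to 2.5 and the mean to 0.0. No promoter of the 10 was called in 2 of 2 libraries of 1 genotype and 0 of 2 of the other. Over all genes the shares were 0.791% (Suv39h dn alone) and 0.478% (WT alone) for asynchronous ESCs, 0.253% and 1.03% for mitotic ESCs, then 1.65% and 2.45% for chromosomes. In the limma test of peak height no gene passed in asynchronous ESCs (0 of 4893, 0%), mitotic ESCs (0 of 460) or chromosomes (0 of 4635), and no other tool was run. At an unadjusted p of 0.05, 149, 27 and 223 genes fell under the line.

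For those of the 10 genes that could be tested the genotype differences in centred log2 fold (Suv39h dn minus WT) ran from -0.32 for Ncaph2 to 0.33 for Ncapg in asynchronous ESCs, with limma adjusted p of 0.999 for each. Ncapg was the 1 of 5 with a positive value there. On chromosomes they ran from -0.27 for Mki67 to 0.00 for Ncapg2, each with an adjusted p of 1, and in mitotic ESCs Ncapd2 gave -0.13. Without Suv39h dn mitotic library 1, Smc4 could also be tested in mitotic ESCs. Its fold was 10.2 and 7.73 for WT and 5.53 for the remaining Suv39h dn library, a difference of -0.87 (SE 0.338, limma adjusted p = 0.815), with the lone library taken to vary like the WT libraries.

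Some sites finer than a promoter were called in both libraries of 1 genotype and in neither of the other. Of 32 sites in asynchronous ESCs this held for an intronic site of Smc4, 15743 bases after its start (chr3:69020429-69020531). It was called in Suv39h dn with 3 and 14 fragments (2.26% of the 59010 regions near genes). In WT it held for a site past the end of Ncapd2, near the start of Gapdh (chr6:125165608-125165820), with 6 and 16 fragments (0.78%). The summits there lay 2354 and 2268 bases outside Ncapd2. A peak of 12 fragments overlapped that last site in Suv39h dn mitotic library 2. Of 17 sites in mitotic ESCs it held for the Mki67 promoter site at -137 bases from the start in Suv39h dn, with 5 and 6 fragments (0.591% of 16083). In WT alone it held for 0 sites (2.57%). WT mitotic library 1 had a Mki67 peak of 4 fragments further upstream, so its promoter was called in both genotypes. On chromosomes 5 of 44 sites were called in WT alone (2.81% of 90793). They lay at 104 bases from the start of Ncaph, -382 from that of Ncapd3, -1059 from that of Mki67, and -2833 and -2691 from that of Ncaph2. The last 2 lay inside the neighbouring gene Lmf2. In Suv39h dn alone 1 was called, in Ncapd3 531 bases after the start (2.2%). Ncapd3 thus had a site of each kind on chromosomes, and its promoter as a whole was called in all 4 libraries. These calls rest on 2 libraries each.

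Outside promoters, 1 intronic site of Smc2 recurred in asynchronous ESCs and was seen in no other preparation. It lay 20691 bases after the start and had 6 fragments in WT library 2 and 3 and 12 in Suv39h dn libraries 1 and 2. Its DNA, from the GRCm38.p6 genome and in the direction of the gene, has no CHR, CCAAT or E2F letters and no capitals, and 66.0% of it is masked as repeat.
Smc2 intron, chr4:52459875-52459974, plus strand: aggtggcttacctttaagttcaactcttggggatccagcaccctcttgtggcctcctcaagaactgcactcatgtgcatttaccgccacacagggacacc

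Genes that work beside condensin had their lowest mean counts in the mitotic libraries, as all protein-coding genes did (42.9%, 18.6% and 43.6% in asynchronous, mitotic and chromosome libraries). Of 16 genes of cohesin, the complex that holds sister chromatids together, and its regulators, 10 to 16 had a promoter peak in asynchronous libraries, 0 to 12 in mitotic and 5 to 13 in chromosome libraries. Of 14 genes of the chromosomal passenger complex and mitotic kinases the ranges were 10 to 13, 2 to 7 and 6 to 11, and of 11 other chromosome structure genes 4 to 11, 0 to 7 and 8 to 10. In each list the lowest mitotic value was that of Suv39h dn library 1. Of these 41 genes, 8 could be tested for peak height between asynchronous ESCs and chromosomes and 2 passed, near the 24.6% of all genes tested. Top2b, which encodes the other type II topoisomerase, fell by 0.90 on chromosomes (limma adjusted p = 0.000416) and Sgo1, the protector of centromeric cohesin, fell by 0.65 (adjusted p = 0.0106). Between genotypes 0 of 23 passed in asynchronous ESCs and 0 of 15 on chromosomes by limma (1 and 1 at an unadjusted p of 0.05), and in the 3 comparisons with mitotic libraries none of the 41 could be tested with all libraries.

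Several of these genes had promoters called in 4 of 4 libraries of 1 preparation and 0 of 4 of another. Pttg1 (securin), Cdca8 (borealin) and Bub1b (BubR1) were called in asynchronous ESCs and not on chromosomes. Aurkb and Haspin, kinases that act on histone H3 in mitosis, were called in asynchronous and not in mitotic ESCs. Birc5 (survivin), Haspin and Smchd1, an SMC protein of the inactive X chromosome, were called on chromosomes and not in mitotic ESCs. Between genotypes, Smc1a (a cohesin core subunit) was called in Suv39h dn alone on chromosomes, Cdca8 in Suv39h dn alone and Bub1b in WT alone in mitotic ESCs. The 0 of 2 for Bub1b includes Suv39h dn mitotic library 1, with 1746 peaks, as does each 0 of 4 in mitotic ESCs. In the order given, the shares of all genes were 2.35%, 2.09% and 7.84% for the preparations. For the genotypes they were 1.65%, 0.253% and 1.03%. The counts from the lists were not tested against these shares.

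Which genes were most alike in their calls was measured by the number of the 12 libraries with the same call as most of the 10 genes. Of the 10, Ncapg, Ncapd3 and Ncapg2 matched in 12 of 12, Ncapd2 in 11, Smc4 in 10, Mki67 in 9, Smc2 in 8, Ncaph and Ncaph2 in 7 and Top2a in 5. This common pattern was a call in each library but Suv39h dn mitotic 1, the shortest list, and 731 protein-coding genes (3.36%) had it. As the 10 genes set the pattern, their own match to it is partly built in and cannot be compared with that share. From the lists above the pattern was shared by Mau2, Wapl, Sgo1, Esco2, Top2b and Cbx5.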

How the data were processed

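The 12 libraries were 2 for each of 6 groups, taken from the sample labels. Per the labels and the Methods, the authors demultiplexed reads with bcl2fastq 2.20.0, trimmed them with Trim Galore 0.4.4, aligned them to mm10 with Bowtie2 2.2.9, sorted with SAMtools 1.2, removed duplicates and mitochondrial reads, shifted read ends and kept short nucleosome-free fragments with deepTools, and called peaks in each library with MACS2. Each deposited list gives a fold enrichment (a ratio of pileup to background), the −log10 of a p-value and a q-value, a score and the summit as an offset. The score was not used. The deposited fold and −log10 p together give the whole fragments at the summit, matched within 0.001 in all of the 437289 peaks whose −log10 p was under 60, and each call's precision rests on that count. Fragments are not scaled for depth.

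Gene models were GENCODE vM21, motifs were searched in RefSeq promoters (GRCm38.p6), and coordinates count from 1. A gene was called when a summit lay within 1 kb of any of its starts. Peak heights were compared with limma 3.58.1 in R 4.3.3 on log2 fold, centred per library, over all genes called in each library compared, with genotype as covariate between preparations and Benjamini-Hochberg adjustment over all of them. The fit was tested on simulated data. Other steps used Python 3.11.15 with pandas 2.3.3, numpy 2.4.6 and scipy 1.17.1, and figures matplotlib 3.10.9. All 10 genes were named, and others from 3 lists where they passed the limma threshold or did not overlap between groups. The genes, lists and tests were chosen with earlier results of these data known. Alternatives were a q of 1e-05, windows of 500 bp and 2 kb, the gene start alone, any overlap, equal list lengths, quantile scaling, a replicate block and leaving out each library.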

Additional observations from a re-analysis of the deposited data

How the results depend on the processing

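Peak calls and not reads were compared, so an uncalled promoter may still be open below the threshold, and 2 libraries a group bound what can be seen. With only peaks at a q of 1e-05 or less the mean number of the 10 genes with a promoter peak was 2.5 in mitotic ESCs and 1.75 on chromosomes (7.98% and 10.7% of all genes), and with lists of equal length 1.5 and 6.25 (4.73% and 39.9%). The peaks near the genes numbered 69 with no flank and 61 at the stricter q, against 171. Promoters called in 1 group alone, 0 as reported, became 2 at the stricter q (Ncapg2 in asynchronous ESCs and not on chromosomes, Smc4 in WT and not in Suv39h dn mitotic ESCs) and 1 with equal lists (Ncaph in WT and not in Suv39h dn asynchronous ESCs). These counts, and the fits with no centring, were chosen after seeing the data. At these settings the share of all genes called in 1 group alone was not computed, so the counts cannot be set against a background.

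Of genes passing limma between asynchronous ESCs and chromosomes, 798 did so when 1 call was enough, 7 of them higher, since an uncalled promoter then counts as 0, 39 at the stricter q and 838 with no centring, 18 of them higher. Ncapd2 then changed sign (-0.66 and -0.42). Between asynchronous and mitotic ESCs 11 became 4 with quantile scaling, 243 when 1 call was enough (Ncapd2 1.72), 17 at the stricter q, 4 with a window of 500 bp, 38 with the replicate block and 39 with no centring. Between mitotic ESCs and chromosomes 32 became 19, 1825 (Ncapd2 -1.88, adjusted p = 0.0132), 19, 21 and, with no centring, 15. Splits into higher and lower were 7 and 4 in the first of these comparisons, against 2 and 2, 243 and 0, 16 and 1, and 0 and 39 (no centring), and 21 and 11 in the second, against 2 and 1823, and 8 and 7. For the genotypes on chromosomes 3 genes passed at the stricter q. The median of all genes with no centring was 0.56 lower in mitotic than in asynchronous ESCs and 0.25 lower on chromosomes than in mitotic ESCs.

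Leaving out 1 library gave means of 8.0 to 9.33, 5.0 to 7.33 and 7.0 to 7.67 genes in asynchronous ESCs, mitotic ESCs and chromosomes, and a genotype difference of -2.33 to 0.0 genes (0.0 without Suv39h dn mitotic 1 and -2.33 without Suv39h dn mitotic 2). Limma counts ranged from 358 to 642, 1 to 56 and 15 to 82 between preparations. Of the second range, 1 was without WT asynchronous 2, 2 and 50 without Suv39h dn asynchronous 2 and 1, 25 without WT asynchronous 1 and 56 without Suv39h dn mitotic 1; of the third, 15 and 82 were without Suv39h dn mitotic 2 and 1. The genotype counts stayed at 0, but for 1 gene in asynchronous ESCs without WT asynchronous 2. Signs of differences near 0 also turned. Ncapd2 ranged from -0.11 to 0.06 between asynchronous and mitotic ESCs (0.03 and 0.06 without WT asynchronous 2 and Suv39h dn asynchronous 1). Between genotypes in asynchronous ESCs it ranged from -0.38 to 0.08 and Ncaph2 from -0.65 to 0.03. On chromosomes the genotype ranges were -0.30 to 0.23 for Ncapg (0.00 when 1 call was enough), -0.32 to 0.19 for Ncapd3, -0.10 to 0.12 for Ncapg2 and -0.60 to 0.08 for Mki67. The replicate block left the genotype difference at -1.17 genes, gave 511 genes between asynchronous ESCs and chromosomes and 26 between mitotic ESCs and chromosomes, and changed the call of none of the 10 genes. Nothing states that the numbers pair libraries. Deviations of same-numbered libraries correlated from -0.05 to 0.24 between preparations and at 0.19, 0.12 and 0.07 between genotypes, and library 2 had the higher minimum background in all 6 groups. The causes were not tested.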
